A study of Mus musculus with 6 samples.

Results

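The 34 genes described here encode the Toll-like receptors (TLRs) and their adaptors and kinases, the cytosolic NOD-like receptors (NLRs), and the inflammasome with its caspases and pore protein. They were selected by gene symbol from a deposited table of 18507 genes measured by RNA sequencing of interscapular brown adipose tissue, and all 34 were present and passed the low-count filter. The 3 wild-type samples (WT) and 3 Beclin1-/- samples (Beclin1_KO) came from C57BL/6 mice of both genotypes dosed with tamoxifen, the drug that switches on an inducible Cre recombinase, at 75 mg/kg by gavage on 5 days in a row. A separate label of every sample reads untreated, and the animals were housed at 22 °C on chow. The series title calls the knockout adipocyte-specific. The promoter that drives Cre, the age of the mice and the interval after tamoxifen are not stated in the labels. Whole tissue was sequenced, so its other cells, which an adipocyte-specific knockout leaves with the gene, contribute to every value. In such bulk samples a change in the number of cells of one type and a change in RNA per cell cannot be told apart.

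TLRs are membrane proteins that recognise microbial molecules: those at the cell surface bind lipids and proteins, and most of those in endosomes bind nucleic acids. All but TLR3 signal through the adaptor MYD88 and the IRAK kinases, while TLR3, and TLR4 from endosomes, use the adaptor TRIF (gene Ticam1). NLRs survey the cytosol. NOD1 and NOD2 bind fragments of bacterial cell wall and signal through RIPK2, and NLRP3 or NLRC4 assemble with the adaptor ASC (Pycard) and caspase 1 into the inflammasome, which matures interleukin 1 beta and interleukin 18 and cleaves gasdermin D into a membrane pore. In adipose tissue these genes are best known from macrophages, although adipocytes and vessel cells also express some of them, Tlr4 and Nod1 among them.

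Libraries held 44269031 to 60983193 counts. Becn1, the targeted gene, read 82.8, 86.4 and 89.2 counts scaled to library size by TMM (CPM, per 1e+06 counts) in WT and 58.0, 53.7 and 42.7 CPM in Beclin1_KO, a log2 fold change of -0.74 (SE 0.13, adjusted p = 0.00411). Reads from exons kept in the recombined allele also enter this count, and the deleted exons are not named in the labels. Marker lists showed what else moved in these libraries. All 10 macrophage markers rose (summed level 244 to 287 CPM in WT and 3971 to 6667 CPM in Beclin1_KO), 7 of 8 adipocyte markers fell and Lep did not pass (26890 to 31380 and 7116 to 12940 CPM). Lymphocyte markers were mixed, with 5 of 8 higher, 2 lower and 1 not passing (5.36 to 9.0 and 27.7 to 50.7 CPM). Of 6 endothelial markers Vwf rose, 4 fell and 1 did not pass (1156 to 1353 and 604 to 775 CPM). None of the 5 neutrophil markers tested passed, and Ly6g, Camp and Retnlg were too low to be tested. The 8 listed genes summed to 2.10 to 8.15 CPM in WT and 2.43 to 5.61 CPM in Beclin1_KO. Ly6g was at 0 in Beclin1_KO and Camp at 0 in WT. Skeletal muscle markers varied within both groups (609 to 16370 and 1198 to 29270 CPM) and 0 of 8 passed. The part of these cell types in the results on the 34 genes was not tested. Xist was at 0 to 11 counts and the Y-linked Ddx3y at 2620 to 4041 counts in all 6 libraries, values that bear on the X-linked genes Tlr7, Tlr8, Tlr13 and Irak1.

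Transcripts of most pattern-recognition receptors and of the inflammasome were higher in Beclin1_KO tissue. A gene is said to have risen or fallen where edgeR's quasi-likelihood test gave a Benjamini-Hochberg adjusted p below 0.05 over all 15347 genes tested. By this rule 25 of the 34 genes rose, 1 (Mavs) fell and 8 did not pass. Over all genes tested 46.6% passed, 24.8% higher and 21.8% lower, against 73.5% higher and 2.94% lower among the 34. The median log2 fold change was 2.11, a 4.32-fold higher level, against 0.05 over all genes. Of the 25 genes that rose, 21 did so at least 2-fold, as did 17.4% of all genes. In 29 of the 34 genes the CPM ranges of WT and Beclin1_KO were separate, as they were in 59.7% of all genes. With WT replicate 2 and Beclin1_KO replicate 1 left out, the libraries with most muscle marker RNA in their groups, 25 of the 34 rose and 1 fell. Tirap and Nlrx1 then passed and Mavs and Tbk1 did not. In that fit 2860 of all 15429 genes tested rose and 2054 fell.

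**Figure D1:**
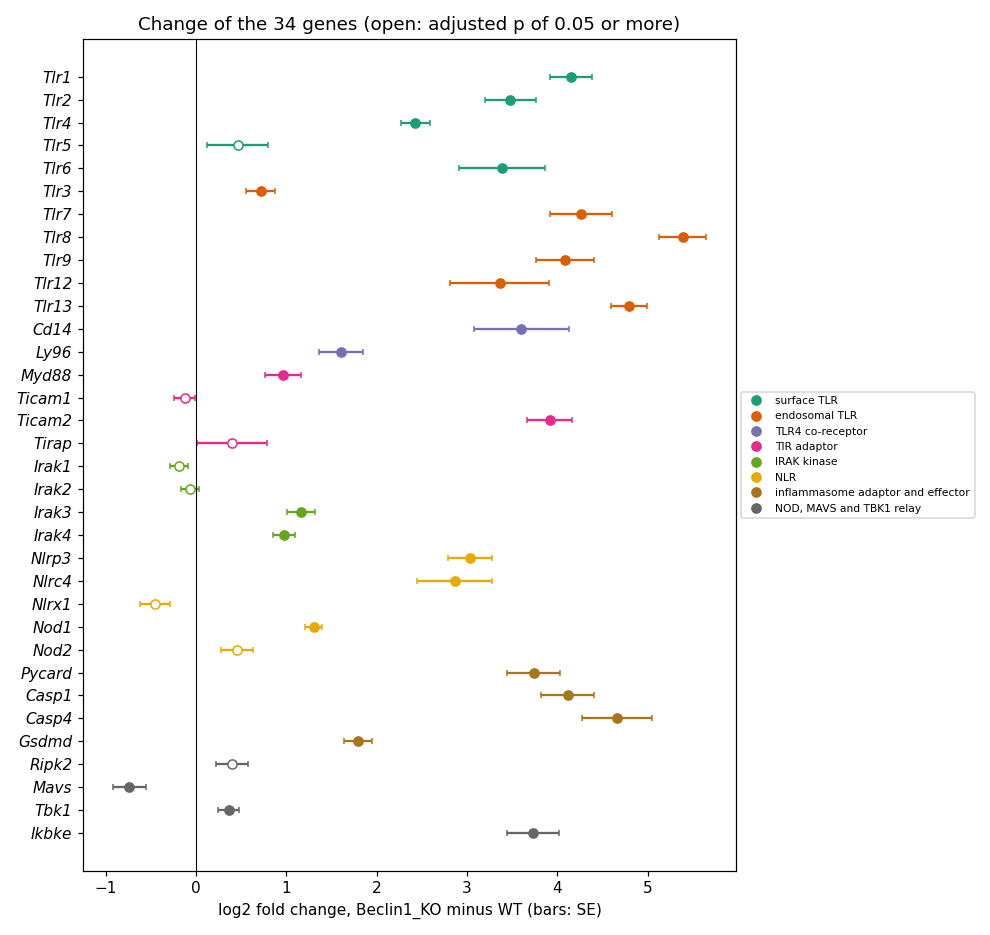
Log2 fold change (x axis, Beclin1_KO minus WT, bars give the SE) of the 34 genes from the test over all 15347 genes, coloured by role. Filled points passed at an adjusted p below 0.05. Tlr8 lies farthest to the right at 5.39, followed by Tlr13 at 4.79 and Casp4 at 4.66, and the adaptor Ticam1 and the kinases Irak1 and Irak2 lie near 0.

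Of the 11 TLR genes, 10 rose and Tlr5 did not pass, with a median log2 fold change of 3.48. Tlr8, Tlr13 and Tlr7, which act in endosomes, had the largest log2 fold changes of the 11. Tlr8, a receptor for breakdown products of single-stranded RNA, read 1.98, 1.70 and 1.71 CPM in WT and 96.7, 75.8 and 53.3 CPM in Beclin1_KO. All 3 knockout libraries lay far above WT, with replicate 1 highest. This 41.9-fold rise was the largest among the 34 genes (log2 fold change 5.39, SE 0.26, adjusted p = 5.24e-05). Tlr13, which in the mouse binds bacterial ribosomal RNA, read 1.88, 1.87 and 1.76 CPM in WT and 62.5, 50.1 and 40.1 CPM in Beclin1_KO, a 27.6-fold rise (log2 fold change 4.79, SE 0.20, adjusted p = 3.25e-05). Tlr7, a receptor for single-stranded RNA, read 2.30, 1.79 and 1.66 CPM in WT and 53.7, 31.7 and 24.8 CPM in Beclin1_KO, where it rose 19.2-fold (log2 fold change 4.26, SE 0.34, adjusted p = 0.000214). In all 3 of these X-linked genes knockout replicate 1 was highest and replicate 3 lowest. The summed macrophage markers had the same order (6667, 4910 and 3971 CPM), and so did the summed skeletal muscle markers (29270, 6977 and 1198 CPM). Not every gene that rose had this order, and its cause was not tested.

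Tlr9, the receptor for unmethylated CpG DNA, rose 16.9-fold, from 0.749, 0.625 and 0.499 CPM in WT to 14.6, 9.0 and 8.26 CPM (log2 fold change 4.08, SE 0.32, adjusted p = 0.000192). Tlr12, a receptor known from the mouse for profilin of protozoan parasites, had the lowest FPKM of the 34 genes. Its 2, 6 and 2 counts in WT and 44, 47 and 62 counts in Beclin1_KO correspond to a 10.3-fold rise (log2 fold change 3.36, SE 0.55, adjusted p = 0.00307), or 16.2-fold without WT replicate 2. Tlr3, the sensor of double-stranded RNA, differed from the other endosomal receptors. It read 9.06, 9.06 and 9.09 CPM in WT and 12.0, 16.5 and 16.2 CPM in Beclin1_KO, a 1.64-fold rise (log2 fold change 0.71, SE 0.16, adjusted p = 0.0102).

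Among the surface receptors, Tlr1, Tlr2 and Tlr6, whose proteins pair up to bind bacterial lipoproteins, rose 10.5-fold to 17.8-fold. Tlr1 read 1.43, 1.67 and 0.95 CPM in WT and 23.7, 24.6 and 23.8 CPM in Beclin1_KO, the narrowest knockout range of these 3 genes, and rose 17.8-fold (log2 fold change 4.15, SE 0.23, adjusted p = 7.08e-05). Tlr2, the shared partner, read 2.13, 2.72 and 1.59 CPM in WT and 31.3, 19.6 and 21.0 CPM in Beclin1_KO, an 11.1-fold rise (log2 fold change 3.48, SE 0.28, adjusted p = 0.000217). Tlr6 read 1.30, 0.446 and 0.499 CPM in WT, where replicate 1 stood above the others, and 9.96, 6.78 and 6.81 CPM in Beclin1_KO. It rose 10.5-fold (log2 fold change 3.39, SE 0.48, adjusted p = 0.00166), and 16.2-fold without WT replicate 1. Tlr1 and Tlr6 are near-identical in part: 15.4% of the 50-base stretches of Tlr1 transcripts also occur in transcripts of other genes, mostly Tlr6. The sources used here do not say how the authors' counting split such reads, so the separate values of both genes are uncertain.

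Tlr4, the receptor for bacterial lipopolysaccharide, read 10.6, 10.6 and 7.81 CPM in WT and 57.7, 47.5 and 51.1 CPM in Beclin1_KO, a 5.38-fold rise (log2 fold change 2.43, SE 0.16, adjusted p = 0.000111). Its co-receptors also rose. Ly96, which encodes the MD-2 subunit that holds the lipid, rose 3.04-fold, from 2.80 ± 0.669 to 8.51 ± 1.19 CPM (SD, n = 3; adjusted p = 0.00223 by edgeR). Cd14, which hands lipopolysaccharide to that complex, read 4.23, 6.61 and 4.94 CPM in WT and 42.7, 36.1 and 113 CPM in Beclin1_KO. Knockout replicate 3 was far above the other two. The rise of Cd14 was 12.1-fold (log2 fold change 3.60, SE 0.52, adjusted p = 0.00274) with that library and 7.48-fold without it (adjusted p = 0.000247). Tlr5, the receptor for flagellin, read 2.32, 3.77 and 1.73 CPM in WT and 4.32, 3.29 and 3.17 CPM in Beclin1_KO, with overlapping groups (log2 fold change 0.46, SE 0.34, adjusted p = 0.304).

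**Figure D2:**
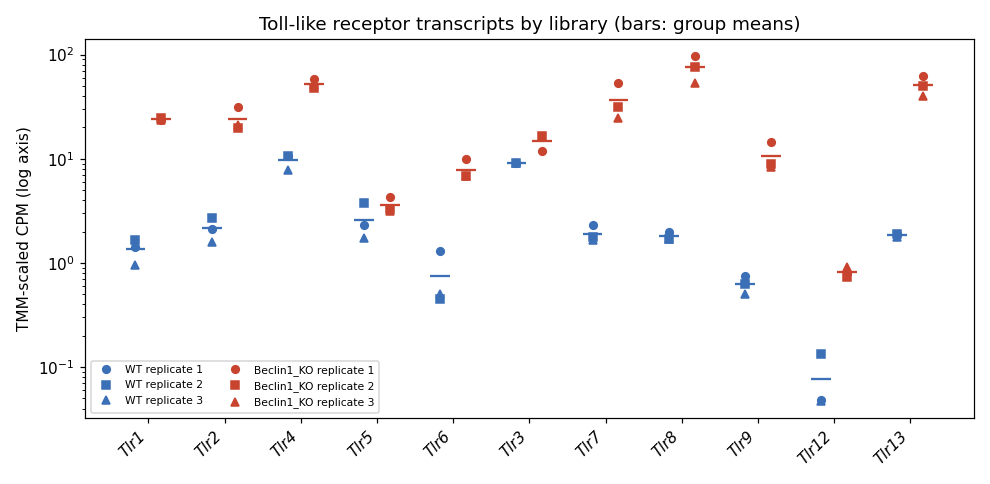
TMM-scaled CPM (log axis) of the 11 TLR genes in each of the 6 libraries, WT in blue and Beclin1_KO in red, with symbols for replicates and bars for group means. Groups overlap for Tlr5 alone, and Tlr8 shows the widest gap, 1.80 against 75.3 CPM in the mean.

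The makeup of the TLR transcripts shifted with these changes. FPKM, which allows comparison between genes because it accounts for transcript length, summed over the 11 TLR genes to 6.22 ± 1.13 in WT and 79.4 ± 14.7 in Beclin1_KO (SD, n = 3). In WT, Tlr3 took the largest mean share of this sum, 29.8% ± 4.35, followed by Tlr4 with 17.1% ± 0.70 and Tlr5 with 11.2% ± 3.36. In Beclin1_KO, Tlr8 led with 21.2% ± 2.47 and Tlr13 followed with 17.6% ± 0.74, from 5.01% ± 0.68 and 6.46% ± 0.64 in WT. The share of Tlr3 was 5.01% ± 1.66 and that of Tlr5 was 1.57% ± 0.09 in Beclin1_KO. Shares did not overlap between groups for 8 of the 11 genes, namely Tlr1, Tlr3, Tlr4, Tlr5, Tlr7, Tlr8, Tlr9 and Tlr13, each at 0.1 by a two-sided exact permutation test, the smallest p that 3 against 3 samples allow. Tlr2, Tlr6 and Tlr12 had overlapping shares. Shares of one sum depend on each other, so these are not separate results.

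**Figure D3:**
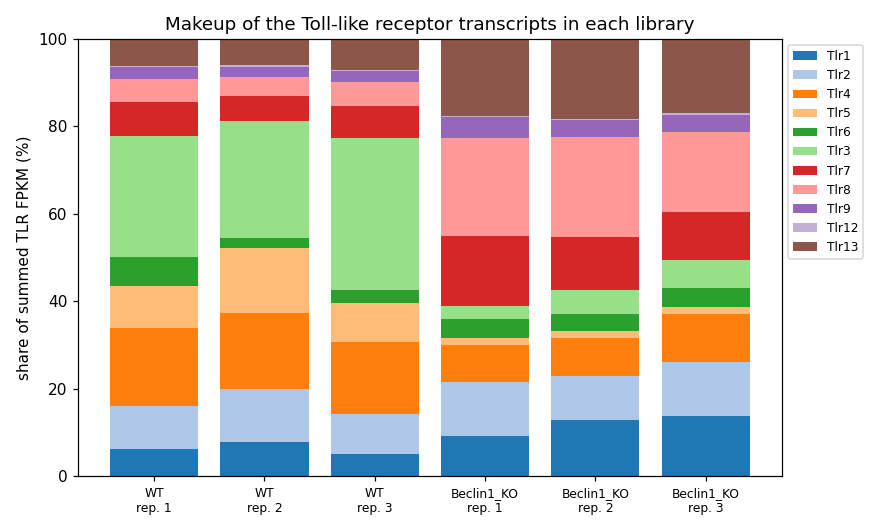
Share of the summed FPKM of the 11 TLR genes (y axis, percent) taken by each gene in the 6 libraries. Tlr3 takes 29.8% of the sum in the WT mean and 5.01% in the Beclin1_KO mean, and Tlr8 takes 5.01% and 21.2%.

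The TIR adaptors that link TLRs to kinases did not move as one. Myd88 read 48.1, 40.3 and 42.3 CPM in WT and 64.8, 79.7 and 110 CPM in Beclin1_KO, a 1.95-fold rise (log2 fold change 0.96, SE 0.20, adjusted p = 0.00792). Ticam1 (TRIF) read 32.3, 27.8 and 34.6 CPM in WT and 26.8, 28.7 and 31.2 CPM in Beclin1_KO, with overlapping groups and a log2 fold change of -0.13 (SE 0.12, adjusted p = 0.421) that was 0.21 and 0.22 on the FPKM scale. Tirap, the bridge between MYD88 and the receptors TLR2 and TLR4, read 11.0, 13.4 and 9.71 CPM in WT and 6.86, 17.9 and 20.1 CPM in Beclin1_KO. Knockout replicate 1 lay below every WT library and the other two above. Tirap did not pass with all libraries (log2 fold change 0.40, SE 0.39, adjusted p = 0.441) and passed without knockout replicate 1 (log2 fold change 0.75, adjusted p = 0.0214, against 0.0209 to 0.826 over 18 alternatives). Ticam2, the TRIF-related adaptor (TRAM) that serves TLR4, rose 15.1-fold, from 0.676, 0.580 and 0.807 CPM to 12.8, 9.01 and 9.38 CPM (log2 fold change 3.92, SE 0.25, adjusted p = 0.000103). GENCODE places 838 exon bases of Ticam2 on the same strand as exons of its neighbour Tmed7, so reads of both genes may be mixed. Tmed7 itself stood at 68.9 ± 5.51 and 87.2 ± 2.71 CPM (log2 fold change 0.34, adjusted p = 0.0276 by edgeR).

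Of the IRAK kinases, Irak3 and Irak4 rose and Irak1 and Irak2 did not pass. Irak4, the kinase that starts the cascade on MYD88, read 15.3, 17.3 and 18.9 CPM in WT and 34.4, 30.9 and 35.7 CPM in Beclin1_KO, a 1.96-fold rise (log2 fold change 0.97, SE 0.12, adjusted p = 0.00106). Its exons share 376 bases with exons of Twf1 on the opposite strand, and the sources used here do not say whether counting used the strand. Twf1 stood at 87.9 ± 9.32 and 101.6 ± 14.6 CPM (adjusted p = 0.264 by edgeR). Irak3 (IRAK-M), a relative without kinase activity that dampens TLR signals and is typical of myeloid cells, read 21.4, 19.6 and 20.5 CPM in WT and 37.2, 46.3 and 54.5 CPM in Beclin1_KO, a 2.24-fold rise (log2 fold change 1.16, SE 0.15, adjusted p = 0.00127). Irak1 read 84.8, 89.8 and 87.7 CPM in WT and 70.4, 78.9 and 80.5 CPM in Beclin1_KO, slightly lower without overlap, and did not pass (log2 fold change -0.19, SE 0.10, adjusted p = 0.147, and 0.14 and 0.15 on the FPKM scale). Irak2 stood at 48.0 ± 4.05 and 45.6 ± 2.31 CPM (SD, n = 3; log2 fold change -0.07, adjusted p = 0.594 by edgeR, and 0.26 and 0.28 on the FPKM scale). In FPKM the share of Irak1 among the 4 kinases was 45.2% ± 1.45 in WT and 32.5% ± 1.10 in Beclin1_KO, and that of Irak3 was 13.5% ± 0.97 and 24.9% ± 2.67.

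Of the 5 NLR genes 3 rose and Nod2 and Nlrx1 did not pass, and those with the lowest FPKM in WT, Nlrp3 and Nlrc4, rose most. Nlrp3, the best studied inflammasome sensor, had 24, 24 and 24 counts in WT and 259, 331 and 269 in Beclin1_KO. In CPM it rose 8.18-fold, from 0.562 ± 0.0232 to 4.61 ± 0.603 (log2 fold change 3.03, SE 0.25, adjusted p = 0.000215). Nlrc4, the platform for bacterial flagellin and secretion systems, read 0.676, 0.290 and 0.522 CPM in WT and 4.66, 3.57 and 2.61 CPM in Beclin1_KO, a 7.26-fold rise (adjusted p = 0.00191 by edgeR). Nod1 read 31.4, 31.0 and 28.9 CPM in WT and 70.2, 77.3 and 77.4 CPM in Beclin1_KO, a 2.46-fold rise (log2 fold change 1.30, SE 0.09, adjusted p = 0.000133). Nod2 read 3.84, 3.84 and 3.51 CPM in WT and 4.79, 5.55 and 4.93 CPM in Beclin1_KO, higher without overlap but not passing (log2 fold change 0.45, SE 0.18, adjusted p = 0.08). It passed with DESeq2 and on the FPKM scale (adjusted p 0.0265 to 0.215 over 18 alternatives). Nlrx1, an NLR at mitochondria that restrains innate signals, read 23.7, 28.2 and 24.0 CPM in WT and 22.5, 16.6 and 16.1 CPM in Beclin1_KO, with a log2 fold change of -0.46 (SE 0.16, adjusted p = 0.0571). Nlrx1 passed as lower with DESeq2, with limma-voom and without knockout replicate 1 (adjusted p 0.0143 to 0.676 over 18 alternatives). In FPKM, Nod1 and Nlrx1 together held most of the sum over these 5 NLR genes, which leaves out other NLRs. Nod1 took 47.2% ± 1.81 of it in WT and 67.8% ± 4.63 in Beclin1_KO. Nlrx1 took 45.7% ± 2.41 and 19.8% ± 3.79.

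All 4 genes that carry the inflammasome signal onward rose. Casp4, which in the mouse encodes caspase 11, the cytosolic sensor of lipopolysaccharide, read 1.23, 2.10 and 0.807 CPM in WT and 27.3, 39.7 and 37.9 CPM in Beclin1_KO. It rose 25.3-fold (log2 fold change 4.66, SE 0.38, adjusted p = 0.00025), and 38.0-fold without the 2 libraries highest in muscle markers. Casp1, which cleaves the interleukin precursors, read 1.18, 2.28 and 1.54 CPM in WT and 29.1, 34.4 and 23.3 CPM in Beclin1_KO, a 17.3-fold rise (log2 fold change 4.11, SE 0.29, adjusted p = 0.000136). Pycard (ASC), the adaptor that nucleates the complex, read 1.72, 2.10 and 1.19 CPM in WT and 23.8, 26.6 and 16.4 CPM in Beclin1_KO, a 13.3-fold rise (log2 fold change 3.74, SE 0.29, adjusted p = 0.000189). Gsdmd, the pore protein gasdermin D, read 11.5, 10.2 and 8.69 CPM in WT and 39.7, 35.5 and 30.2 CPM in Beclin1_KO, a 3.47-fold rise (log2 fold change 1.79, SE 0.16, adjusted p = 0.000287).

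Of the kinases and adaptors that relay NOD, RNA-sensor and TRIF signals, Ikbke and Tbk1 rose, Mavs fell and Ripk2 did not pass. Ikbke, an inducible kinase for interferon regulatory factors, read 2.90, 3.57 and 1.97 CPM in WT and 44.7, 39.5 and 27.7 CPM in Beclin1_KO, a 13.2-fold rise (log2 fold change 3.73, SE 0.29, adjusted p = 0.000182). Its ubiquitous relative Tbk1 read 36.0, 30.0 and 35.7 CPM in WT and 42.8, 41.1 and 46.5 CPM in Beclin1_KO, a 1.28-fold rise (log2 fold change 0.36, SE 0.11, adjusted p = 0.0364). The call of Tbk1 was lost when any 1 of the 6 libraries was left out (adjusted p 0.0622 to 0.114). Mavs, the mitochondrial adaptor of the RIG-I-like RNA sensors, read 95.6, 125 and 157 CPM in WT and 78.8, 71.4 and 75.7 CPM in Beclin1_KO. It fell 1.67-fold (log2 fold change -0.74, SE 0.18, adjusted p = 0.0156), and did not pass without knockout replicate 2 (adjusted p = 0.0573), without the 2 libraries highest in muscle markers (0.0787) or on the FPKM scale (0.104), within a range of 0.0012 to 0.104 over the alternatives. Ripk2, the kinase below NOD1 and NOD2, read 12.3, 11.2 and 13.3 CPM in WT and 12.4, 18.0 and 18.2 CPM in Beclin1_KO. Ripk2 did not pass with all libraries (log2 fold change 0.40, SE 0.18, adjusted p = 0.112) and passed without knockout replicate 1 (0.0236) and on the FPKM scale (0.0205 to 0.0215).

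**Figure D4:**
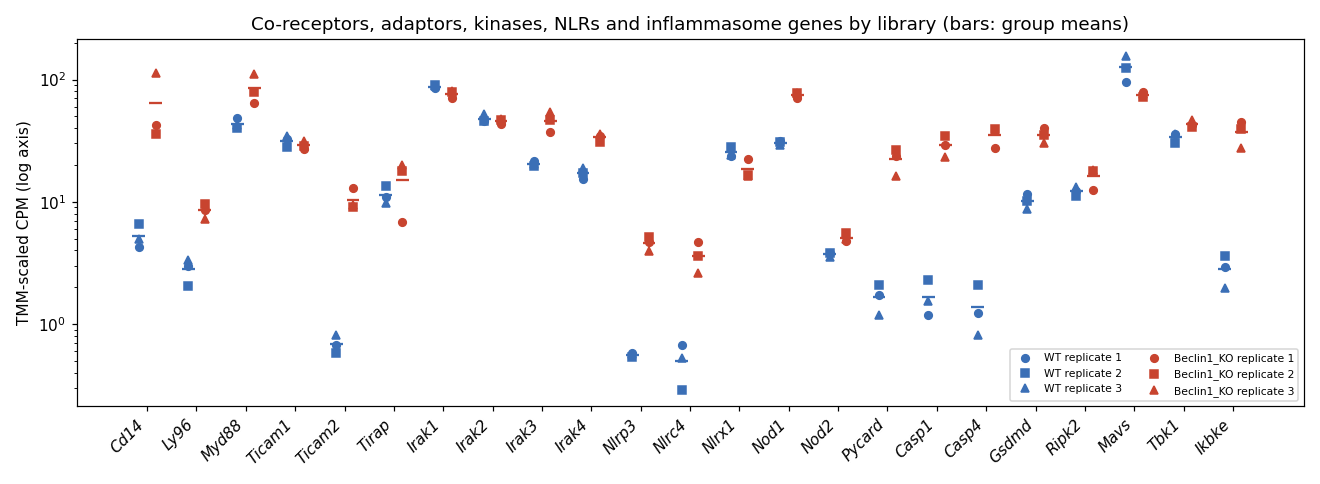
TMM-scaled CPM (log axis) of the other 23 genes in each library, WT in blue and Beclin1_KO in red, with symbols for replicates and bars for group means. Pycard, Casp1, Casp4 and Ikbke rose from under 4 CPM to over 16 CPM in every knockout library, while Irak1, Irak2 and Ticam1 did not pass the test.

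By level, the order of the genes changed. In WT, Mavs had the highest mean FPKM of the 34 genes (35.5 ± 6.71), followed by Irak1 (20.1 ± 0.915) and Myd88 (19.9 ± 2.78), whose ranges overlapped. The lowest was Tlr12 (0.0210 ± 0.0138). In Beclin1_KO the highest means belonged to Myd88 (49.4 ± 13.3), Cd14 (42.3 ± 27.5), Mavs (27.8 ± 0.566) and Casp4 (27.0 ± 6.05), and each overlapped the next in the order. Casp4 stood at 0.830 ± 0.414 FPKM in WT, below 18 of the other genes in the mean.

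Each gene was also set against the macrophage markers of its own library, as log2(CPM + 0.5) minus the mean of the same quantity over the 10 markers. That mean was 4.21 to 4.29 in WT and 7.82 to 8.35 in Beclin1_KO. On this scale 96.5% of all genes tested were lower in every knockout library than in every WT library and 0.397% were higher, since the markers themselves rose. Of the 34 genes, 25 were lower, 7 overlapped and 2 were higher. The higher ones were Tlr8, at -2.98, -3.16 and -3.06 in WT and -1.75, -1.82 and -2.07 in Beclin1_KO, and Tlr13, at -3.04, -3.04 and -3.03 in WT and -2.38, -2.41 and -2.48 in Beclin1_KO. Both had 0.1 by the exact permutation test, the smallest value possible. The 10 markers did not rise alike, from 4.01-fold for Mertk to 27.9-fold for Lyz2. Lyz2 rose more than Tlr13, so higher on this scale means above the marker mean, not above every marker. Tlr8, at 41.9-fold, rose more than each of the 10 markers. The 7 genes with overlapping groups, whose level relative to the markers did not separate genotypes, were Tlr1, Tlr7, Cd14, Pycard, Casp1, Casp4 and Ikbke. Among the 25 lower genes the difference ranged from -0.55 for Tlr9 to -4.53 for Mavs, and it was -1.44 for Tlr4, -3.15 for Tlr3 and -1.56 for Nlrp3. The values of scarce genes depend on the added 0.5 CPM. With 0.1 CPM added, Tlr8 and Tlr13 again lay higher without overlap (0.717% of all genes), 21 genes were lower (93.2% of all genes) and 11 overlapped. Tlr2, Tlr6, Tlr9 and Ticam2 then overlapped, with differences of -0.44, -0.52, -0.01 and -0.13, and the difference was -1.04 for Nlrp3 and -1.46, against -2.63, for Tlr12. This scale is a description, and the share of macrophage RNA in any gene's level was not tested.

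**Figure D5:**
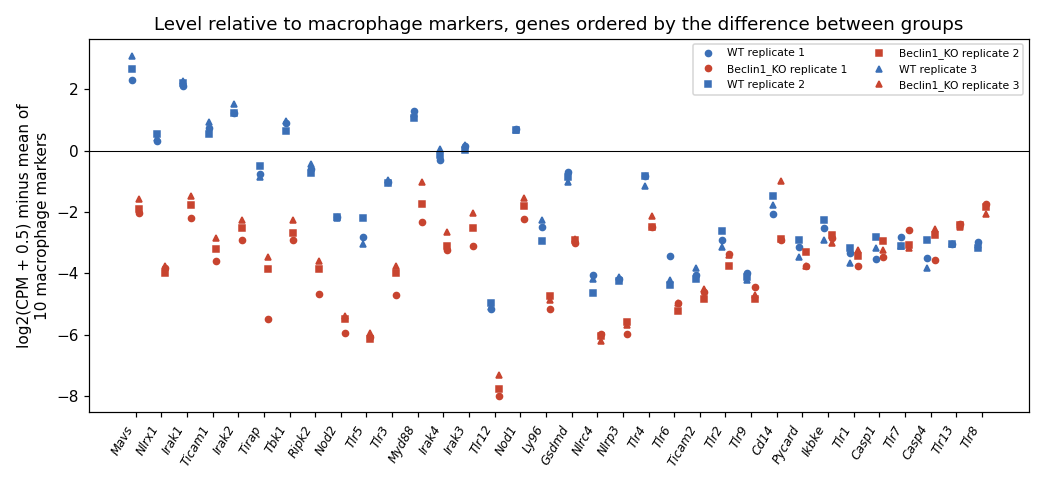
Level of each of the 34 genes relative to the mean of 10 macrophage markers in the same library (y axis, log2), WT in blue and Beclin1_KO in red, ordered by the difference between groups. Mavs lies at the left end with a difference of -4.53, and Tlr13 and Tlr8 lie at the right end with 0.62 and 1.19.

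Some of these genes are neighbours in the genome (GRCm38). Tlr1 (chromosome 5, 64924680 to 64933600) and Tlr6 (64953092 to 64970942) lie 19.49 kb apart and rose 17.8-fold and 10.5-fold. Tlr8 (chromosome X, 167241123 to 167264329) and Tlr7 (167303380 to 167330574) lie 39.05 kb apart and rose 41.9-fold and 19.2-fold. Casp1 (chromosome 9, 5298517 to 5307281) and Casp4 (5308849 to 5336791) lie 1.57 kb apart and rose 17.3-fold and 25.3-fold.

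RefSeq promoter windows of 27 of the 34 genes were searched on both strands for 3 motifs. These were 36 windows of 300 bases, 250 before and 50 after the start (GRCm38.p6). Tlr4, Tlr7, Cd14, Ly96, Ticam2, Gsdmd and Ripk2 were not searched. The kappaB consensus, known as the site of NF-kB, occurred in 5 of 27 genes (18.5%, against 9.55% of 27025 genes), namely Tlr2, Tlr3, Casp4, Nlrp3 and Irak1. The interferon-response core TTTCNNTTT occurred in 9 of 27 (33.3%, against 12.1%), namely Tlr2, Tlr3, Tlr6, Tlr12, Myd88, Nod1, Nlrp3, Casp4 and Ikbke. The letters GAGGAAGT, of the kind bound by the myeloid factor PU.1, occurred in 3 of 27 (11.1%, against 3.69%), namely Tlr1, Tlr9 and Pycard. On the gene's own strand alone, kappaB was in 5 of 27 (18.5%, against 6.72%). The interferon-response core was then in 6 (22.2%, against 6.5%) and GAGGAAGT in 1 (3.7%, against 2.12%). Matches of the 3 motifs with each other did not overlap, while Tlr6 held 3 interferon-response cores that overlap one another. A match is a description of letters and shows no binding.

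Shown are the 200 bases before a RefSeq start of 4 genes that rose and hold these motifs, of Tlr8, which rose most and holds none, and of Mavs, which fell and holds none. Each is printed 5′ to 3′ on the gene's strand, with motif matches in capitals. They lie at chr3:83841609-83841808 (Tlr2, minus strand), chr9:5308649-5308848 (Casp4, plus strand), chr5:64959167-64959366 (Tlr6, minus strand), chr5:64933559-64933758 (Tlr1, minus strand), chrX:167264330-167264529 (Tlr8, minus strand) and chr2:131233863-131234062 (Mavs, plus strand) of GRCm38.p6.
Tlr2: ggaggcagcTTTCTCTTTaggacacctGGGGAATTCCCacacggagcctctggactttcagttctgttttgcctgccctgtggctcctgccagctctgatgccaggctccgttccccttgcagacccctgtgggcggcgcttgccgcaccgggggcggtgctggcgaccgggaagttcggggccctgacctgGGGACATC
Casp4: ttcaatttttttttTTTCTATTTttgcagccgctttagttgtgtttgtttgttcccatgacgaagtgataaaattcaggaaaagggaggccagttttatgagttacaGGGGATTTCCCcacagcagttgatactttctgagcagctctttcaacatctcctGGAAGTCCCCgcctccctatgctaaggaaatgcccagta
Tlr6: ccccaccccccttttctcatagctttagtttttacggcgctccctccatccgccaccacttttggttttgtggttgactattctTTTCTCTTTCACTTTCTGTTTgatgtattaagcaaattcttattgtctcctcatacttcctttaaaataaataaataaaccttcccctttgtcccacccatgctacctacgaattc
Tlr1: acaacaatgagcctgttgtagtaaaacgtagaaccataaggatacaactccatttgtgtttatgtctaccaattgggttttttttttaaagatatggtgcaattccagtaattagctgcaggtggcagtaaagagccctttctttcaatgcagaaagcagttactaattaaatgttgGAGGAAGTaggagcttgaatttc
Tlr8: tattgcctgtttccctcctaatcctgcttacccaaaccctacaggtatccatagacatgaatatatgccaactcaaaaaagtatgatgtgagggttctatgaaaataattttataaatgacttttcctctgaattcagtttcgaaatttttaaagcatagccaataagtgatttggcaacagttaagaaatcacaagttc
Mavs: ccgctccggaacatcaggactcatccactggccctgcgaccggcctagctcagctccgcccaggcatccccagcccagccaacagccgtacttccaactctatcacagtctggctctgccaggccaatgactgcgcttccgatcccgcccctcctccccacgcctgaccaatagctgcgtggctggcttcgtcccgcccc
In Tlr2 the last capitals begin a kappaB match that runs past the start. Casp4 holds kappaB matches at -93 to -83 and at -39 to -30 and an interferon-response core at -186 to -178. The 3 interferon-response cores of Tlr6 follow each other from -116 to -96, and the GAGGAAGT of Tlr1 lies at -23 to -16. Tlr6 and Tlr1 each have another listed start whose window holds no match, and the Tlr6 start shown lies within the annotated gene, downstream of its outermost start.

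Other genes of these pathways, in 9 lists, also rose more often than they fell. Of 117 listed genes 110 were tested, and 75 rose, 5 fell and 30 did not pass (68.2% higher, against 24.8% of all genes tested). The macrophage markers moved in the same libraries, as given above, and their part in these counts was not tested. For endosomal TLR trafficking, 7 of 9 genes rose and Hsp90b1 and Lrrc59 did not pass. Unc93b1, the chaperone that carries nucleic acid-sensing TLRs to endosomes, rose 7.04-fold, from 43.7 ± 3.69 to 308 ± 80.4 CPM (adjusted p = 0.00016 by edgeR). Lgmn, a lysosomal protease able to process TLR9, rose 7.65-fold, Rab7b 11.8-fold and progranulin, Grn, 4.02-fold. Of 9 tested co-receptor and accessory genes 7 rose, Cd36 fell and Hmgb1 did not pass. Lbp, the lipopolysaccharide-binding protein, rose 35.0-fold, from 3.84 ± 1.01 to 135 ± 44.0 CPM (adjusted p = 0.000106 by edgeR). Ly86, the partner of CD180, rose 23.5-fold, the adaptor Pik3ap1 23.2-fold and the kinase Btk 10.7-fold, while Cd36, a fatty acid transporter that also serves TLR2, fell 1.64-fold.

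Of 18 genes of the ubiquitin and kinase relay below the IRAKs, 5 rose, Rbck1 fell and 12 did not pass, among them Traf6, Map3k7 (TAK1), Chuk and Ikbkg. The 27.8% higher and the median log2 fold change of -0.03 lie near the 24.8% and 0.05 of all genes tested. Without the 2 libraries highest in muscle markers 3 of the 18 passed, against 6, while over all genes 4914 passed, against 7150. Birc3, a ubiquitin ligase, rose 3.14-fold, Peli1 1.67-fold and the kinase Ikbkb 1.43-fold, and Rbck1, of the linear ubiquitin ligase, fell 1.53-fold. Of 11 NF-kB and IkB genes 8 rose and Rel, Nfkbib and Bcl3 did not pass. That count was 5, 4 and 5 without WT replicate 1, 2 and 3 in turn, and 4 without the 2 libraries highest in muscle markers. Over all genes the count that passed also fell in these fits, from 7150 to 6211, 6080, 5559 and 4914 in the same order. Nfkbie, an IkB protein, rose 4.93-fold, Tnfaip3 (A20) 3.95-fold, Nfkb2 2.20-fold and Nfkb1 1.39-fold. Of 13 genes that restrain TLR signals 8 rose, 0 fell and 5 did not pass. Trim30a rose 4.54-fold, Dok1 7.98-fold, the lipid phosphatase Inpp5d 6.33-fold and the kinase Lyn 3.48-fold, whereas Tollip, Sarm1 and Sigirr had log2 fold changes of 0.09, 0.01 and 0.02.

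Of 8 IRF transcription factors 6 rose and 2 fell. Irf8, a factor of myeloid cells, rose 12.8-fold, Irf5 10.5-fold, Irf7 6.17-fold and Irf2 1.99-fold. Irf3, the constitutive target of TBK1, fell 1.29-fold, from 66.5 ± 3.25 to 51.3 ± 5.07 CPM (adjusted p = 0.0262 by edgeR), and Irf4 fell 5.29-fold, from 51.7 ± 28.0 to 9.76 ± 2.77 CPM (adjusted p = 0.0114). Of 15 genes of RNA and DNA sensing 12 rose, Tbkbp1 fell 1.85-fold and Tank and Azi2 did not pass. The DNA sensors Aim2 and Ifi204 rose 11.2-fold and 16.1-fold, Zbp1 21.4-fold and the nucleotide hydrolase Samhd1 4.01-fold.

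Of 18 tested genes in the list of other NLRs and inflammasome genes 15 rose, 0 fell and Nlrp10, Nek7 and Txnip did not pass. Naip2, Naip5 and Naip6, sensors that engage NLRC4, rose 5.65-fold, 13.2-fold and 8.79-fold, with the reservation that reads of these paralogs may be shared. Mefv, which encodes pyrin, rose 22.6-fold, from 0.379 ± 0.104 to 8.63 ± 2.75 CPM (adjusted p = 0.000209 by edgeR). Of 9 interleukin 1 family genes 7 rose, 0 fell and Il1a and Il18bp did not pass. Il18, a caspase 1 substrate, rose 12.2-fold, from 0.441 ± 0.173 to 5.43 ± 0.735 CPM (adjusted p = 0.000494 by edgeR). Il33 rose 43.4-fold, and the antagonist Il1rn and the decoy receptor Il1r2 rose 18.6-fold and 13.2-fold.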

How the data were processed

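RNA from brown adipose tissue was made into TruSeq Stranded mRNA libraries, per the labels' protocols. The submitters' processing notes name HISAT2 2.1.0, StringTie 1.3.4d, DESeq2 and mm10, without roles. The authors deposited raw read counts per gene and FPKM, which is scaled to transcript length and library size. Their deposited comparison gives a signed fold change, a score negative where the knockout is lower, with p-values. A block of 6 further per-sample columns was not used.

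Counts were tested with edgeR 4.0.16 (R 4.3.3; filterByExpr, leaving 15347 of 18507 genes, TMM scaling, robust quasi-likelihood test with genotype as the only term) over all genes, adjusted by Benjamini-Hochberg. SE values come from the F statistic and the fold change. CPM are per 1e+06 counts, TMM-scaled. Groups came from sample titles, and the design text calls the samples biological replicates. Alternatives used DESeq2 1.42.0 and limma 3.58.1, the latter on log2(FPKM + 1) and log2(FPKM + 0.1). Promoters are from RefSeq (GRCm38.p6), positions from RefSeq and exon overlaps from GENCODE M21 (GRCm38). The 34 genes, the lists and the tests were chosen with earlier results of these data known. All 34 genes are named, and of each list up to 4 genes with the smallest p, those that moved against the majority and, after their values were seen, some that did not pass.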

Additional observations from a re-analysis of the deposited data

How the results depend on the processing

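Over 18 alternative fits the count of the 34 genes that changed was 24 to 28, against 26, and the count that rose was 24 to 26, against 25. Over all genes the count that changed was 4914 to 7944, against 7150, with 12463 to 18507 genes tested. Of the 34 genes, Mavs alone was lower in the main test. The count lower was 2 with DESeq2 and with limma-voom (Nlrx1 added), 0 on both FPKM scales, and 0 to 2 when a library was left out. Their median log2 fold change of 2.11 was 1.62 on log2(FPKM + 1), a scale that understates low genes, and 1.80 when 1 CPM was required in each sample of either group, which drops Tlr12. It was 2.01 to 2.17 when a library was left out. On FPKM, which is not corrected for composition and lies 0.32 to 0.34 higher in the median gene, 3 genes that did not pass changed sign on log2(FPKM + 1) and log2(FPKM + 0.1): Ticam1 (0.21 and 0.22), Irak1 (0.14 and 0.15) and Irak2 (0.26 and 0.28). These FPKM fits leave out Tlr12 and Nlrc4. There 74.2% of calls over all genes were higher, against 53.3%.

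Relative to macrophage markers the median difference of -2.22 was -1.77 with 0.1 CPM added. Searched on the gene's strand only, GAGGAAGT was in 1 gene. A 2-fold limit left 4108 of 7150 changed genes and 21 of the 26. With the replicate number as a block 26 of the 34 genes and 6403 of all genes passed. Correlations computed to look for pairing were -0.41, 0.02 and 0.40 for same-numbered samples. Those of differently numbered samples ran from -0.56 to 0.57. With 3 samples a group such values can neither show nor exclude pairing. The samples were left unpaired because the replicate numbers are not stated to pair animals. Of the pathway genes 67 to 85 changed, against 80. WT libraries held 2 to 6 counts of Tlr12, and 13 to 54 of Tlr6, Tlr9, Ticam2, Nlrp3 and Nlrc4, so counting error is largest there. The SE values rest on 3 samples a group and on a fit that shares information on spread between genes.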

Other observations

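In the authors' deposited table, 25 of the 34 genes were higher, 2 lower and 7 not passing at an adjusted p below 0.05. The direction was the same as in the edgeR fit for all 34. The share of all genes passing in that table was not counted, so these counts have no background beside them. In the DESeq2 fit made here, 4217 of all 15347 genes tested were higher and 3727 lower. The authors' deposited table gives Tlr8 a signed fold of 41.9 and Tlr13 one of 27.7. The lower pair in the authors' deposited table is Mavs (-1.67) and Nlrx1 (-1.38, adjusted p = 0.0457).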
